A study of Pleurodeles waltl with 10 samples.

Results

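Protocadherins are the cell adhesion genes described here, as they are named in the transcript catalogue of a single-cell RNA sequencing study of the newt forebrain. Members were all gene names that, in capitals, consist of PCDH followed by letters or digits, and the form of the name alone chose them. There were 38 such names among 16771 names in the catalogue, and they covered 1072 of 194378 transcripts. Of the 38 names, 26 have the form of clustered protocadherins (PCDHA, PCDHB or PCDHG followed by more) and 12 the form of non-clustered ones (PCDH followed by a number).

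The study used larvae of Pleurodeles waltl, the Iberian ribbed newt, whose forebrains were dissociated with papain at stage 55. All 10 libraries came from animals that had received the virus PHP-GFP, at stage 37 (2 gene expression and 2 multiplexing oligo libraries), stage 41 (1 of each kind) or stage 51 (2 of each kind), and none of the 6 groups is labelled as uninjected. The labels give neither the promoter of the virus nor the number of animals. The values below come from the catalogue that pairs transcripts with genes. They belong to the series as a whole, so they have no replicates, no depth per library and no test, and the expression of protocadherins at each injection stage was not analysed here.

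Protocadherins are the largest family of cadherins, proteins with repeated calcium-binding extracellular domains that hold cells together. In mammals the clustered genes lie side by side in alpha, beta and gamma arrays. Each promoter of the alpha and gamma arrays drives a variable exon that encodes the extracellular part, and this exon is spliced to constant exons shared by the whole array. Single neurons use few of these promoters, and the combination lets neurites of the same cell recognise each other. Non-clustered protocadherins are not part of these arrays. Their delta-1 and delta-2 groups differ in the number of extracellular repeats and in the cytoplasmic tail, and they guide axon growth, cell sorting and synapse formation.

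Clustered names had a median of 5.5 distinct transcripts per name, with quartiles of 3 and 11, against a median of 25 and quartiles of 12.5 and 40.25 for non-clustered names. The median over all 16771 names was 6. Clustered names thus lay near the middle of the catalogue at their median, and 11 of the 12 non-clustered names lay above it. Means stood closer together, at 25.2 ± 49.3 transcripts for clustered and 34.7 ± 31.5 for non-clustered names (SD across 26 and 12 names). A few clustered names carried most of that mean. The 3 largest of the 26 names held 456 of the 656 clustered transcripts (69.5%). The 3 largest of the 12 non-clustered names, a larger part of their class, held 237 of 416 (57.0%).

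**Figure D1:**
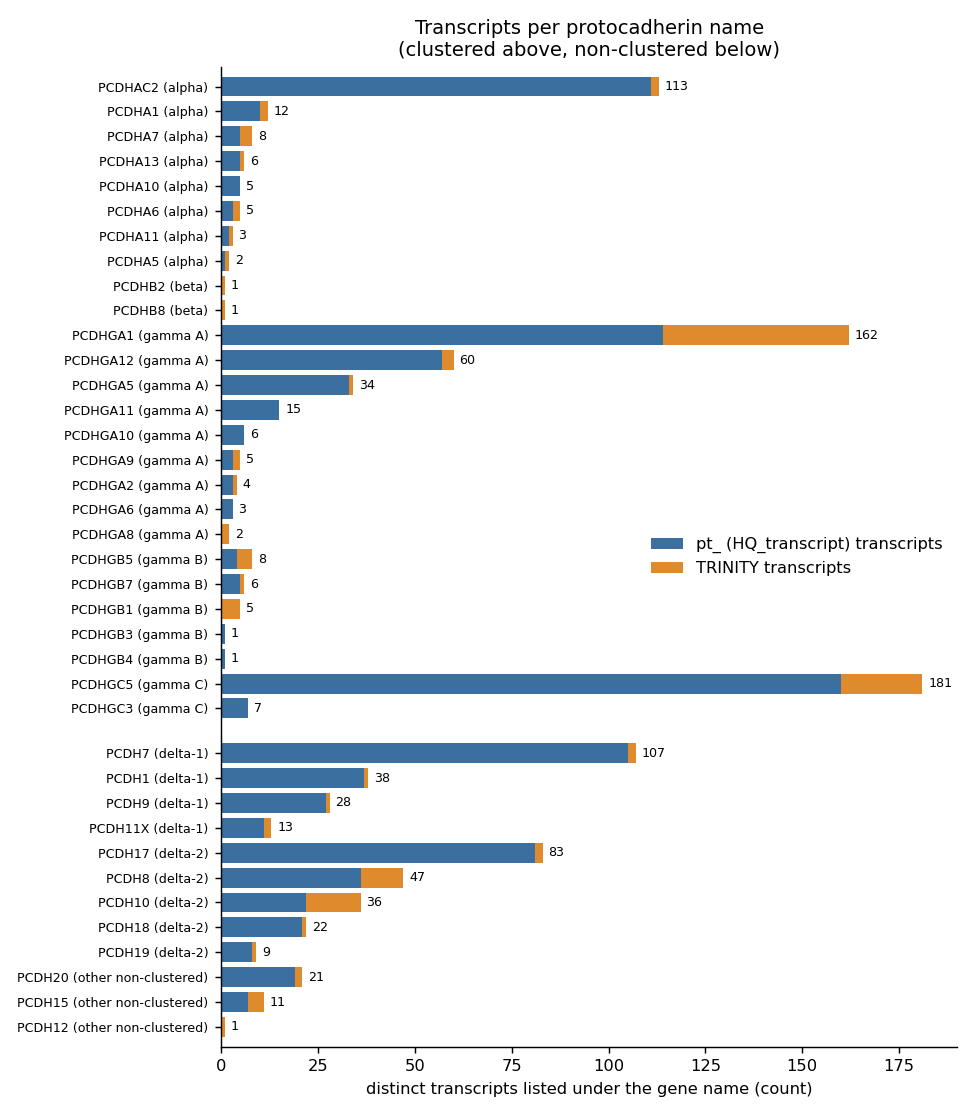
Bars give the number of distinct transcripts listed under each of the 38 protocadherin names, split by source, with clustered names above and non-clustered names below. PCDHGC5 (181), PCDHGA1 (162) and PCDHAC2 (113) stand far above the other clustered names, while 11 of the 12 non-clustered names hold between 9 and 107 transcripts.

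Among the clustered names, the alpha family had 8 names and 154 transcripts. PCDHAC2, a C-type isoform, a kind that in the mouse is not chosen at random, had 113 transcripts, the third highest value of all protocadherins. The next alpha name, PCDHA1, had 12 transcripts. PCDHA7 had 8 transcripts, PCDHA13 had 6, and PCDHA10 and PCDHA6 had 5 each. PCDHA11 had 3 transcripts and PCDHA5 had 2. Most transcripts of the alpha family therefore stood under the single name PCDHAC2, with 7 further names of 12 transcripts or fewer.

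The gamma family had 16 names and 500 transcripts. PCDHGC5, another C-type isoform, had 181 transcripts and ranked 15 among all names of the catalogue. PCDHGC3, also of the C type, had 7 transcripts. Within the gamma A names, PCDHGA1 had 162 transcripts (rank 23), PCDHGA12 had 60, PCDHGA5 had 34 and PCDHGA11 had 15. The other 5 gamma A names ran from 6 transcripts for PCDHGA10 down to 2 for PCDHGA8. Gamma B names were all low, with 8 transcripts for PCDHGB5, 6 for PCDHGB7, 5 for PCDHGB1 and 1 each for PCDHGB3 and PCDHGB4.

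The beta family was barely represented. Its only names were PCDHB2 and PCDHB8, with 1 transcript each, both from TRINITY. Beta genes in mammals have no constant exons of their own. A name with a single transcript was found for 4 of the 26 clustered names (PCDHB2, PCDHB8, PCDHGB3 and PCDHGB4) and for PCDH12 among the 12 non-clustered names, and single transcripts made up 17.0% of all names of the catalogue.

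The numbers in these names follow the human genes, although a number shared with a human gene does not show that the newt gene is its counterpart. Of the 15 human alpha names, 8 were present. The 7 absent ones were PCDHA2, PCDHA3, PCDHA4, PCDHA8, PCDHA9, PCDHA12 and PCDHAC1. Of the 22 human gamma names, 16 were present, and PCDHGA3, PCDHGA4, PCDHGA7, PCDHGB2, PCDHGB6 and PCDHGC4 were absent. How the authors assigned names to transcripts is not given in the sources used here.

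Among delta-1 protocadherins, PCDH7 had 107 transcripts (rank 80 in the catalogue), PCDH1 had 38, PCDH9 had 28 and PCDH11X had 13. All 4 lay above the catalogue mean of 11.6 transcripts per name. So did 4 of the 5 delta-2 names, 7 of the 26 clustered names and 5054 of all 16771 names. In mammals PCDH11X lies on the X chromosome.

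Delta-2 protocadherins include members that recruit the actin-regulating WAVE complex through their cytoplasmic tails. PCDH17 had 83 transcripts. PCDH17 is known in the mouse for its place at synapses of corticobasal ganglia circuits. PCDH8, an activity-regulated protein that acts with N-cadherin at synapses in rodents, had 47 transcripts. PCDH10, which in the mouse is needed for the growth of striatal axons, had 36 transcripts. PCDH18 had 22 transcripts. PCDH19, whose human counterpart is mutated in an epilepsy that affects mainly girls, had 9, the fewest of the delta-2 group. The ranges of the delta groups overlapped, from 13 to 107 transcripts with a median of 33 for delta-1 names and from 9 to 83 with a median of 36 for delta-2 names.

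Of the remaining non-clustered names, PCDH20 had 21 transcripts, PCDH15, a component of the tip link of sensory hair cells, had 11, and PCDH12, an endothelial adhesion protein, had 1. Spelling divided a single member: PCDH8 had 45 of its 47 transcripts in capitals and 2 as pcdh8. When names were kept as written, this gave 39 names and a non-clustered median of 22.

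Other cadherins showed where the protocadherins stand. The 23 names made of CDH and a number had a median of 18 transcripts and a highest value of 68, for CDH2 (N-cadherin, the main neural cadherin). The 9 giant cadherins of the FAT, DCHS and CELSR families had a median of 10 and a highest value of 58, for CELSR2. The non-clustered median of 25 was thus above both, and the clustered median of 5.5 below both. Transcripts per name in PCDHGC5, PCDHGA1, PCDHAC2, PCDH7 and PCDH17 exceeded those of every name in both cadherin lists.

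**Figure D2:**
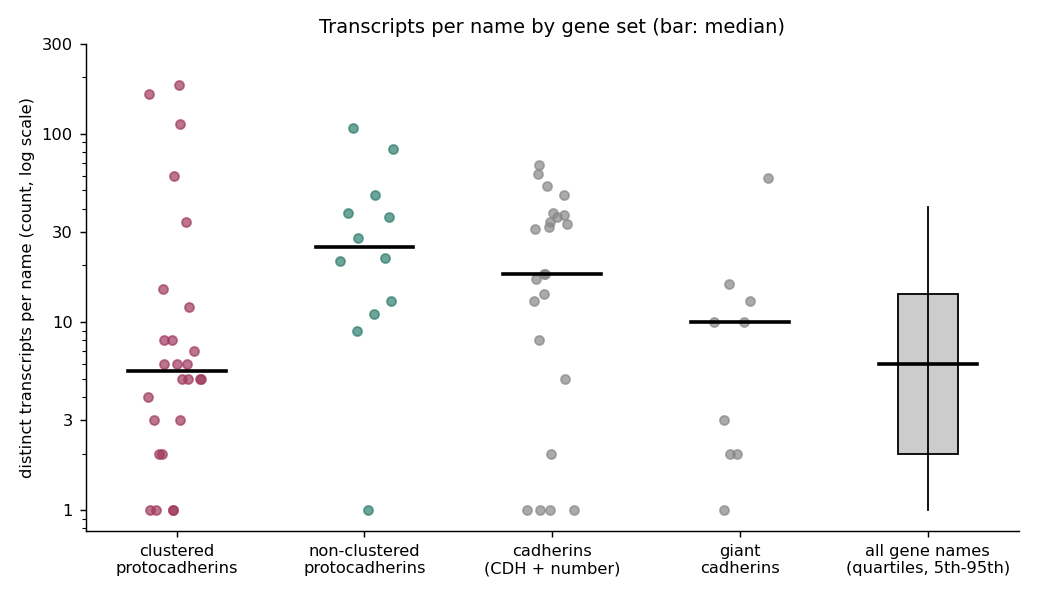
Points give distinct transcripts per name on a log scale for clustered protocadherins, non-clustered protocadherins, CDH-number cadherins and giant cadherins, horizontal bars the medians (5.5, 25, 18 and 10), and the box and line the quartiles (2 and 14, median 6) and the range between the 5th and the 95th percentile of all gene names. Clustered names are spread from 1 to 181, whereas non-clustered names other than PCDH12 begin at 9.

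Protocadherin transcripts had 2 sources, which differ in name. Names that start with pt_ and contain HQ_transcript have the form that long-read software writes, and names that start with TRINITY_ the form of the short-read assembler of that name. TRINITY supplied 102 of 656 clustered transcripts (15.5%, 95% Wilson interval 13.0% to 18.5%) and 42 of 416 non-clustered ones (10.1%, 7.56% to 13.4%), against 17.3% of the whole catalogue. Transcripts of a gene are not independent, so these intervals serve only as a scale. Single names weighed heavily on these shares. PCDHGA1 held 48 of the 102 clustered TRINITY transcripts, and without it, a step chosen after seeing the data, the clustered share was 10.9%. PCDH10 held 14 of the 42 non-clustered ones. With the name with the most transcripts left out of each class, as planned, the shares were 17.1% and 12.9%.

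Within the clustered names the source varied from all pt_ to all TRINITY. Both sources supported 15 of the 26 clustered names and 11 of the 12 non-clustered names, beside 11849 of all 16771 names. TRINITY was the only source for PCDHB2, PCDHB8, PCDHGA8 and PCDHGB1, and for PCDH12 among non-clustered names, a total of 5 of 38 beside 28.1% of all names in the catalogue. The pt_ source stood alone for 7 clustered names (PCDHA10, PCDHGA6, PCDHGA10, PCDHGA11, PCDHGB3, PCDHGB4 and PCDHGC3) and for 0 non-clustered names. In the catalogue, 209 of the 16771 names had no TRINITY transcript, a count that includes any name with neither source. PCDHGC3 and PCDHGB1 show the contrast, with 7 transcripts that were all pt_ and 5 that were all TRINITY.

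Among the delta names, PCDH10 and PCDH8 had the most TRINITY transcripts. TRINITY gave 14 of the 36 PCDH10 transcripts (38.9%) and 11 of the 47 PCDH8 transcripts (23.4%). In the other 3 delta-2 names it gave 1 or 2 transcripts each, and in the 4 delta-1 names also 1 or 2 each. Outside the delta groups, PCDH15 had 4 TRINITY transcripts of 11 (36.4%). PCDH7, with 105 pt_ and 2 TRINITY transcripts, was at the other end (1.87% TRINITY).

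The short-read assembler links contigs by shared sequence and writes a c, a g and an i (isoform) number into each name. Component and cluster are terms of this report and not of the assembler. A component is the set of contigs that agree up to the c number, and a cluster the set that agree up to the g number. Clustered names had a mean of 2.96 ± 6.72 clusters per name, against 2.33 ± 2.10 for non-clustered names (SD across 26 and 12 names) and 1.71 over all names. Medians were 1 and 1.5. PCDHGA1 alone had 33 clusters for its 48 TRINITY transcripts, and only 3 names in the catalogue had more. PCDHGC5 had 14 clusters for 21 transcripts. Together they held 46 of the 69 distinct clusters of the clustered names (66.7%). Without PCDHGA1, a step chosen after seeing the data, the clustered mean was 1.76. No name was left out of the non-clustered class to match, so 1.76 and 2.33 do not rank the classes. With the name with the most transcripts left out of each class (PCDHGC5 and PCDH7), the clustered and non-clustered means were 2.52 and 2.36. Among names with at least 1 TRINITY transcript they were 4.05 and 2.33. PCDH10, with 8 clusters for 14 transcripts, was the highest non-clustered name, ahead of PCDH8 and PCDH15 with 4 each.

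**Figure D3:**
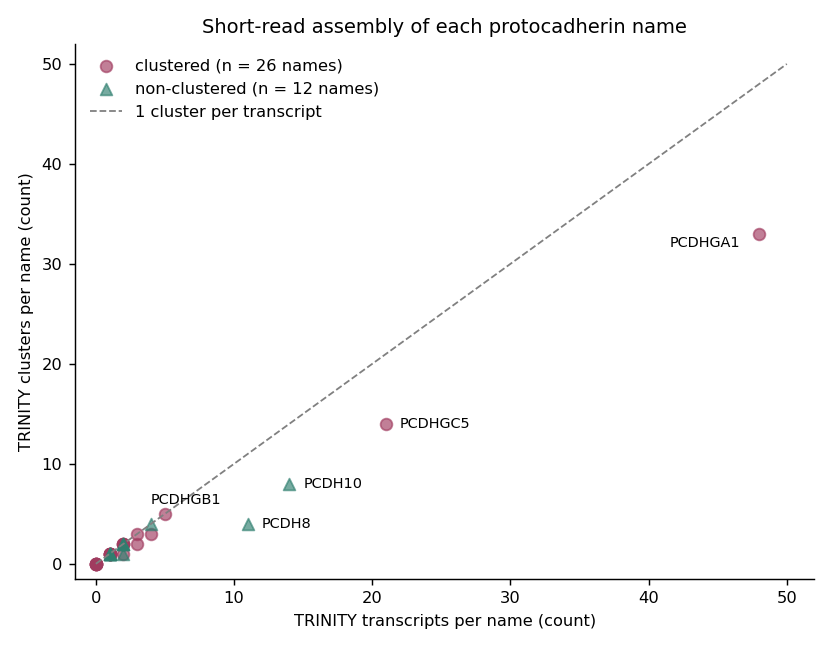
Each point is a protocadherin name, with its number of TRINITY transcripts on the x axis and of TRINITY clusters on the y axis, circles for clustered and triangles for non-clustered names (many points overlap near 0). PCDHGA1 (48 transcripts, 33 clusters) and PCDHGC5 (21, 14) lie apart from the rest, and PCDH10 (14, 8) and PCDH8 (11, 4) are the highest non-clustered names.

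Protocadherin names met each other inside the assembler's clusters. Of the 95 TRINITY clusters that held a protocadherin, 10 carried more than 1 gene name (10.5%, 95% Wilson interval 5.82% to 18.3%), against 2.23% of the 28058 clusters of the catalogue. A cluster of a single transcript can carry several names only where that transcript is listed under several names. This held for 0 protocadherin transcripts but occurred elsewhere: 626 clusters of the catalogue had several names, and 586 of these had at least 2 transcripts. Among clusters of at least 2 transcripts the count was 10 of 27 (37.0%, 21.5% to 55.8%), against 14.4% of all such clusters. Every one of the 10 clusters held a clustered name, and all their names were protocadherins. Most clusters of at least 2 transcripts held a clustered name, however. By class, 10 of 22 with a clustered name had several names (45.5%, 26.9% to 65.3%). With a non-clustered name these were 2 of 7 (28.6%, 8.22% to 64.1%), so the intervals overlapped widely. A cluster can count for both classes. Seen by name, 11 of the 26 clustered and 2 of the 12 non-clustered names shared a cluster with another name, and 6.71% of all names in the catalogue did so. Counted by component and not by name (below), the shares were 23.5% for clustered and 23.1% for non-clustered names. Among components of at least 2 transcripts they were 48.0% and 60.0%.

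Gamma names met only gamma names in the shared clusters, in 6 of the 10. Alpha names met alpha names and delta-2 names equally often. In 5 of the 6 gamma clusters PCDHGA1 was a partner, with PCDHGA12 in 2 clusters and with PCDHGA8, PCDHGB5 and PCDHGC5 in 1 each. In the remaining gamma cluster PCDHGB1 met PCDHGC5. Alpha names met alpha names in 2 clusters, PCDHA6 with PCDHA7 and PCDHA6 with PCDHAC2. Alpha and gamma names met in 0 clusters. Alpha names stood in only 8 distinct clusters, however, and gamma names in 59. With so few alpha clusters the 0 says little about the 2 families, and it was not tested.

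The other 2 shared clusters crossed the line between clustered and non-clustered names, and both joined an alpha name to a delta-2 name. In TRINITY_DN171957_c0_g1, 5 isoforms were named PCDH10 and 1 was named PCDHA1. In TRINITY_DN311262_c2_g1, 2 isoforms were named PCDH8 and 1 was named PCDHA11. One of the 2 PCDH8 isoforms was spelled pcdh8. These contigs make up 1 of the 2 TRINITY transcripts of PCDHA1 and the only one of PCDHA11.

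At the wider level of components, 22 pairs of names were found, a pair being counted once for each component that it shared. PCDH10 with PCDHA6 and PCDHGA1 with PCDHGA12 were thus counted 2 times each. Alpha and delta-2 names formed 6 pairs, of which PCDH10 was part of 5, with PCDHA6 in 2 components and with PCDHA1, PCDHA7 and PCDHAC2 in 1 each. PCDH18 and PCDH19 shared a component, the only pair of delta-2 names, and alpha names formed 2 pairs with each other. Gamma names formed 11 pairs with each other. Alpha with gamma and gamma with delta-2 pairs numbered 0, but alpha names had only 8 clusters and delta-2 names 16, so these zeros say little. Genes that are no protocadherins entered in 2 pairs: CELSR3, a giant cadherin, beside PCDHGA1, and EN1, a homeobox gene, beside PCDH8. Components with more than 1 name were 14 of 73 (19.2%) for protocadherins and 7.04% in the catalogue. Among components of at least 2 transcripts they were 14 of 31 (45.2%, 95% Wilson interval 29.2% to 62.2%), and the 31.6% of the catalogue lay inside that interval. By class, 12 of 51 components with a clustered name (23.5%) and 6 of 26 with a non-clustered name (23.1%) had several names. With at least 2 transcripts these were 12 of 25 (48.0%) and 6 of 10 (60.0%). A component can count for both classes. Whether a name was wrongly given or the assembler joined related genes cannot be told apart from names, and sequences were not analysed here.

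**Figure D4:**
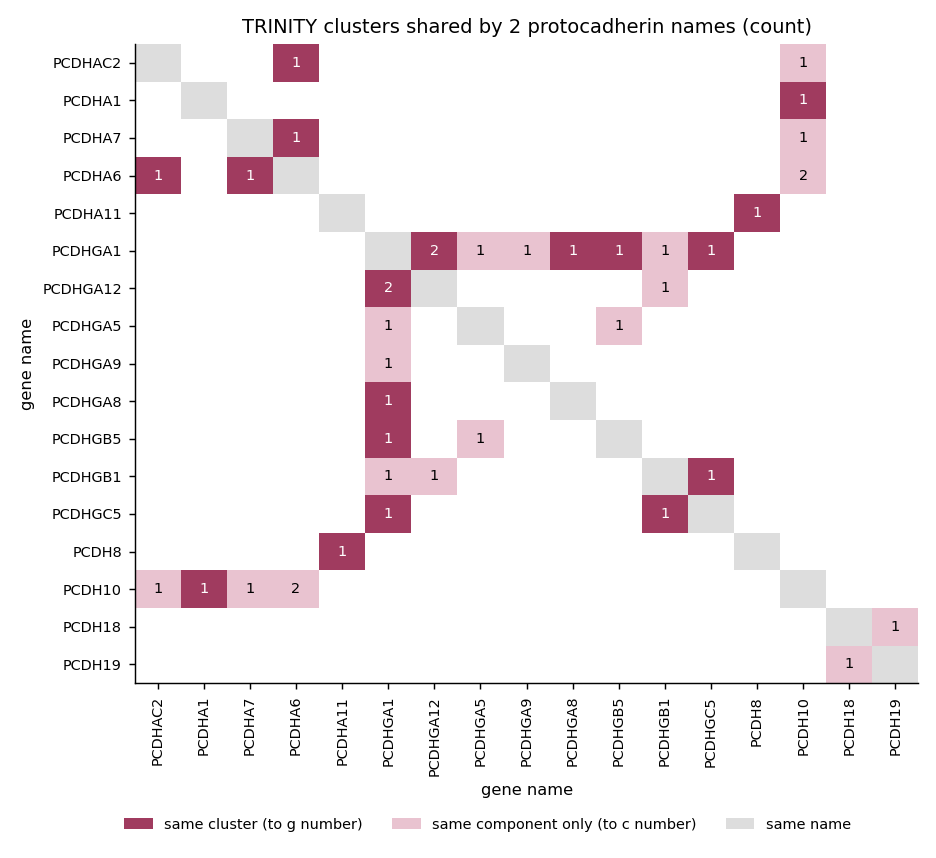
Cells give the number of TRINITY clusters (dark) or, where no cluster is shared, components (light) that carry both the row name and the column name, for the 17 protocadherin names that share any. Gamma names form a block around PCDHGA1, and alpha names connect to each other and to PCDH10 and PCDH8. No cell joins an alpha with a gamma name, but alpha names had only 8 clusters.

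A newt gene table from RefSeq (assembly aPleWal1.hap1), used for names and gene order only, named the non-clustered but not the clustered genes. Of the 12 non-clustered names 10 were RefSeq symbols, with PCDH8 and PCDH11X as the exceptions, and of the 26 clustered names 0 were. In the catalogue as a whole, 74.2% of names matched a symbol. Several non-clustered genes had few genes listed between them. Distances along the chromosomes and the places of PCDH7, PCDH15 and PCDH19 were not analysed here. PCDH18 and PCDH10 had no protein-coding gene listed between them (0 of the 5 genes there), and PCDH9, PCDH20 and PCDH17 followed each other with 1 and 3 protein-coding genes in between, DIAPH3 and TDRD3 among the 3.

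DIAPH1 and PCDH1 had 7 genes listed between them, and PCDH1 and PCDH12 were separated by 4 genes, of which DELE1 had a symbol. In humans the alpha, beta and gamma arrays lie between ZMAT2 and DIAPH1, followed by HDAC3, RELL2, FCHSD1, ARAP3, PCDH1, DELE1 and PCDH12. The newt table had these flanking genes in the same order. Between ZMAT2 and DIAPH1 it listed 35 genes, of which 30 were protein coding, 3 pseudogenes and 2 long non-coding RNAs, and 0 had a symbol other than LOC and a number. Of the 30 protein-coding genes, 27 had 1 transcript accession each, equal to the median over all 22339 protein-coding genes. LOC138245659 had 10 accessions, and further towards DIAPH1, LOC138245662 had 47, a number that only 3 protein-coding genes of the table exceeded. The table does not say what these 35 genes encode, and whether any of them matches a clustered name of the catalogue was not tested.

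**Figure D5:**
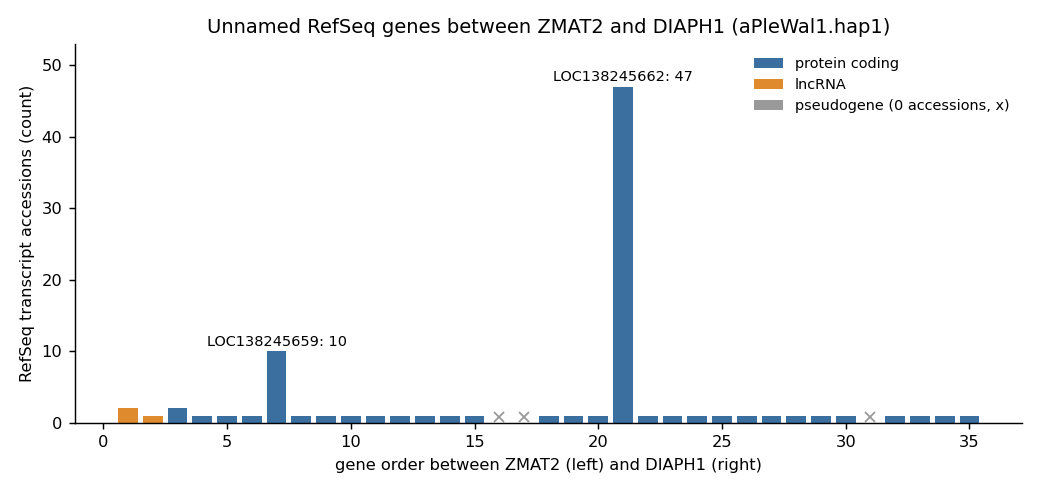
Bars give the number of RefSeq transcript accessions of each of the 35 genes listed between ZMAT2 and DIAPH1, in gene order and coloured by biotype. LOC138245659 with 10 and LOC138245662 with 47 accessions rise above a row of protein-coding genes that have 1 accession each, or 2 in a single case.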

How the data were processed

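The authors deposited a catalogue of transcripts and their gene names for the whole series, which holds text and no measured values. Its 194406 rows part the fields by 8 spaces, or by tabs in 3 rows. The assembly, filtering and naming of the transcripts are not given in the sources used here. Salmon 1.6.0 and alevin are named in the submitters' processing notes. The deposited list of oligo barcodes was not used, and no table held values of a library.

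Gene names were folded to upper case, and distinct pairs of transcript and name were counted, which left 16771 of 17112 names. Folding and the clustered or non-clustered class used the name alone. None of the 1072 protocadherin rows was repeated, and 0 of their transcripts stood under another name. RefSeq symbols of LOC and a number were left out of name matching. The functions were tested on a made catalogue of known counts. Members and lists were chosen with earlier results of these data known. By the rule for named genes, the delta names, the 5 clustered names with the most transcripts and names that share a cluster or have several spellings were to be given singly. The other members, the gene order between ZMAT2 and DIAPH1, and the other genes named were added once their values were known. Calculations used Python 3.11.15, pandas 2.3.3, scipy 1.17.1 and matplotlib 3.10.9.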

Additional observations from a re-analysis of the deposited data

How the results depend on the processing

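The 8 summary values were recomputed in other ways, the leaving out of PCDHGA1 and those for shared clusters chosen after seeing the data. Of these 46 values, 35 stayed within a ratio of 1.5 (counts, medians and means) or within the 95% Wilson interval (shares). With TRINITY transcripts alone, the median per name was 2 for clustered and 2 for non-clustered names, and with pt_ transcripts alone it was 5 and 22 (names with at least 1 transcript of that source). The mean in place of the median gave 25.2 for clustered names. Limiting members to RefSeq symbols left 10 names and no clustered one, so no clustered value could be had. Without PCDHGA1, the clustered TRINITY share was 10.9% and the mean number of clusters 1.76. The share of protocadherin clusters with several names was 37.0% among clusters of at least 2 transcripts, 19.2% for components and 26.9% for names up to the DN number, where the catalogue had 14.4%, 7.04% and 13.5%. With at least 2 transcripts, it was 45.2% for components and 54.5% up to the DN number, against 31.6% and 49.0% in the catalogue, both inside the protocadherin intervals (29.2% to 62.2% and 38.0% to 70.2%). Names of the fish form numbered 0, and no protocadherin row was repeated. Moving fish-form names and counting every row therefore could not change a value, but their values are counted among the 35. Keeping names as written likewise could not change the clustered values, because only PCDH8 had several spellings. No paired analysis was possible because the catalogue holds no values per library, and no library could be left out. Depth is unknown, and without sequences the names could not be checked.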

Other observations

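Genes that act on protocadherins were mostly present, and their transcripts per name can be set beside the median of 6 over all gene names. Of 12 factors that choose or silence clustered promoters in mammals, 11 were present under the listed symbol, with a median of 30 transcripts and a range from 11 to 60. CTCF, the DNA-binding protein that loops an enhancer to the chosen promoter, had 20 transcripts, the cohesin loader NIPBL had 60, and SMCHD1, a silencer of these arrays in the mouse, had 29. DNMT3B, which methylates their promoters, was the lowest of those found under the listed symbol, with 11. The cohesin release factor WAPL was not found under that symbol, but 10 transcripts stood under its older symbol WAPAL. All 15 intracellular partners were present, with a median of 21. NCKAP1, a subunit of the WAVE complex, had 115 transcripts, and the focal adhesion kinases PTK2B and PTK2, which bind clustered protocadherins, had 68 and 37. Values below the catalogue median were found for PPP1CA with 4, BRK1 with 3 and WASF2 with 1, and the last 2 of these had no pt_ transcript.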
